A study of Mus musculus with 10 samples.

Results

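The genes described here are 45 nuclear genes of oxidative phosphorylation, chosen by their symbols in the platform annotation of the arrays, among 16504 named genes measured. They comprise 17 genes of complex I, 4 of complex II, 6 of complex III, 8 of complex IV and 9 of complex V, with Cycs, the electron carrier cytochrome c, given apart. Every one of them was measured on all 10 arrays, by 1 probe each except Cycs, which has 2. The RNA came from mouse left ventricles whose walls no longer contracted in step, which the study calls dyssynchrony and ties to an implanted pacemaker. There were 4 such hearts, numbered 1, 3, 4 and 5 in the labels, and they were set against 1 control pool of RNA from synchronous mice. Lateral wall and septal wall RNA of a heart, or of the pool, shared an array, and a further array carried the same pair with Cy3 and Cy5 exchanged. The pool mixes animals whose number the labels used here do not give, and it is a single replicate. Strain and age are likewise not stated in those labels.

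Oxidative phosphorylation is the process by which mitochondria make most of the ATP of a beating heart. Complex I takes electrons from NADH and complex II takes them from succinate, both pass them through ubiquinone to complex III, and cytochrome c carries them on to complex IV, where oxygen is reduced. The protons pumped on the way drive complex V, the ATP synthase. Cardiac muscle is densely packed with mitochondria, and the transcripts of these subunits are among the abundant messages of the tissue.

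Each value below is the log2 of the lateral wall signal over that of the septal wall, as the average of a heart's Cy5 and Cy3 arrays, and is positive where the lateral wall was higher. The deposited ratios were read as log10 of Cy5 over Cy3 and turned by the label of the Cy5 wall, a scale and a direction that are likely but not stated. That the deposited sign follows the dyes can be read from Myl7, an atrial myosin light chain, which after turning averaged -4.65 in the hearts with lateral RNA in Cy5 and -4.44 with lateral RNA in Cy3, and was septal on all 8 heart arrays. Its pool ratio was -0.12. Were the ratio Cy3 over Cy5, every sign given here would be exchanged. Between single arrays the median absolute deviation over all genes ranged from 0.22 to 0.47, and as deposited the arrays of 1 heart or of the pool correlated at 0.17 to 0.35 across genes. The dyes are exchanged between those arrays, so a shared wall ratio would make this correlation negative. Its positive values are therefore not agreement between the arrays on the wall ratio. No brightness of either channel was analysed here, so the genes cannot be ranked by expression level, and in tissue RNA a smaller number of cells of a type cannot be told apart from less RNA per cell.

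The oxidative phosphorylation genes were nearly equal in both walls. Their mean ratios over the 4 hearts ran from -0.091 for Ndufv1 to 0.16 for Ndufv2, both of complex I, which is 1.07-fold higher in the septal wall at one end and 1.12-fold higher in the lateral wall at the other. None of the 45 was beyond 1.5-fold in any heart, whereas 30.9% of all genes were beyond it in at least 1 heart. By the mean over the hearts 0 members and 1.33% of all genes were beyond 1.5-fold, and in the pool 0 members and 7.11% of all genes were. The median standard deviation (SD) between hearts was 0.055 for the 45 genes and 0.23 over all genes. Other lists were similarly tight. Citric acid cycle genes (13) had 0 beyond 1.5-fold in any heart and a median SD of 0.081, ventricular cardiomyocyte markers (12) had 0 and 0.084, and ribosomal protein genes (64, a list added after the data were seen) had 1 and 0.052.

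No member passed the test of the mean ratio against 0, which was limma with dye swaps averaged per heart, fitted across all genes and adjusted by the method of Benjamini and Hochberg at 0.05. The lowest adjusted p in limma among the members was 0.797, and 0% of all genes passed. At an unadjusted p under 0.05 there were 2 members, Ndufv2 and the complex II gene Sdhd, a share near the 5.66% of all genes (934) that reached it. A limma fit to single arrays, with dye in the model and heart as a random block, called 20 genes in all for the wall ratio. Among them were 0 members, and 7 members had an unadjusted p under 0.05 in that fit. It treated the 2 arrays of each heart as almost separate samples. Its share over all genes is not given here, so the 7 cannot be set beside the 5.66%. The intervals give a bound all the same. The 95% limma intervals of the 45 means lay between -0.25 and 0.32, so none reached beyond 1.25-fold in the lateral direction or 1.19-fold in the septal direction.

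The small ratios leaned toward the lateral wall. The mean over hearts was above 0 for 39 of 45 genes and below 0 for 6. Ratios of single hearts were above 0 for 36, 26, 33 and 31 of the 45 in hearts 1, 3, 4 and 5, where 47.5%, 45.5%, 49.3% and 49.1% of all genes were. The pool had 24 of 45 above 0, against 49.0% of all genes. In all 4 hearts at once 16 members were higher laterally and 2 were higher septally, where 7.80% and 7.63% of all genes were. From arrays with lateral RNA in Cy3 alone, both counts were 9, and from those in Cy5 alone the septal count was 6. The mean over hearts was above 0 for 35 of the 45 with lateral RNA in Cy5 and for 24 with lateral RNA in Cy3, so the lean was stronger in the Cy5 orientation. Without heart 1 the septal count was 4, and without heart 4 it was 5. Shares over all genes for these alternative counts are not given here. The same lean in the 4 hearts was already known when the genes were chosen. It is given as a description with no test, because with 4 hearts the smallest two-sided p of an exact permutation of signs is 0.125.

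**Figure D1:**
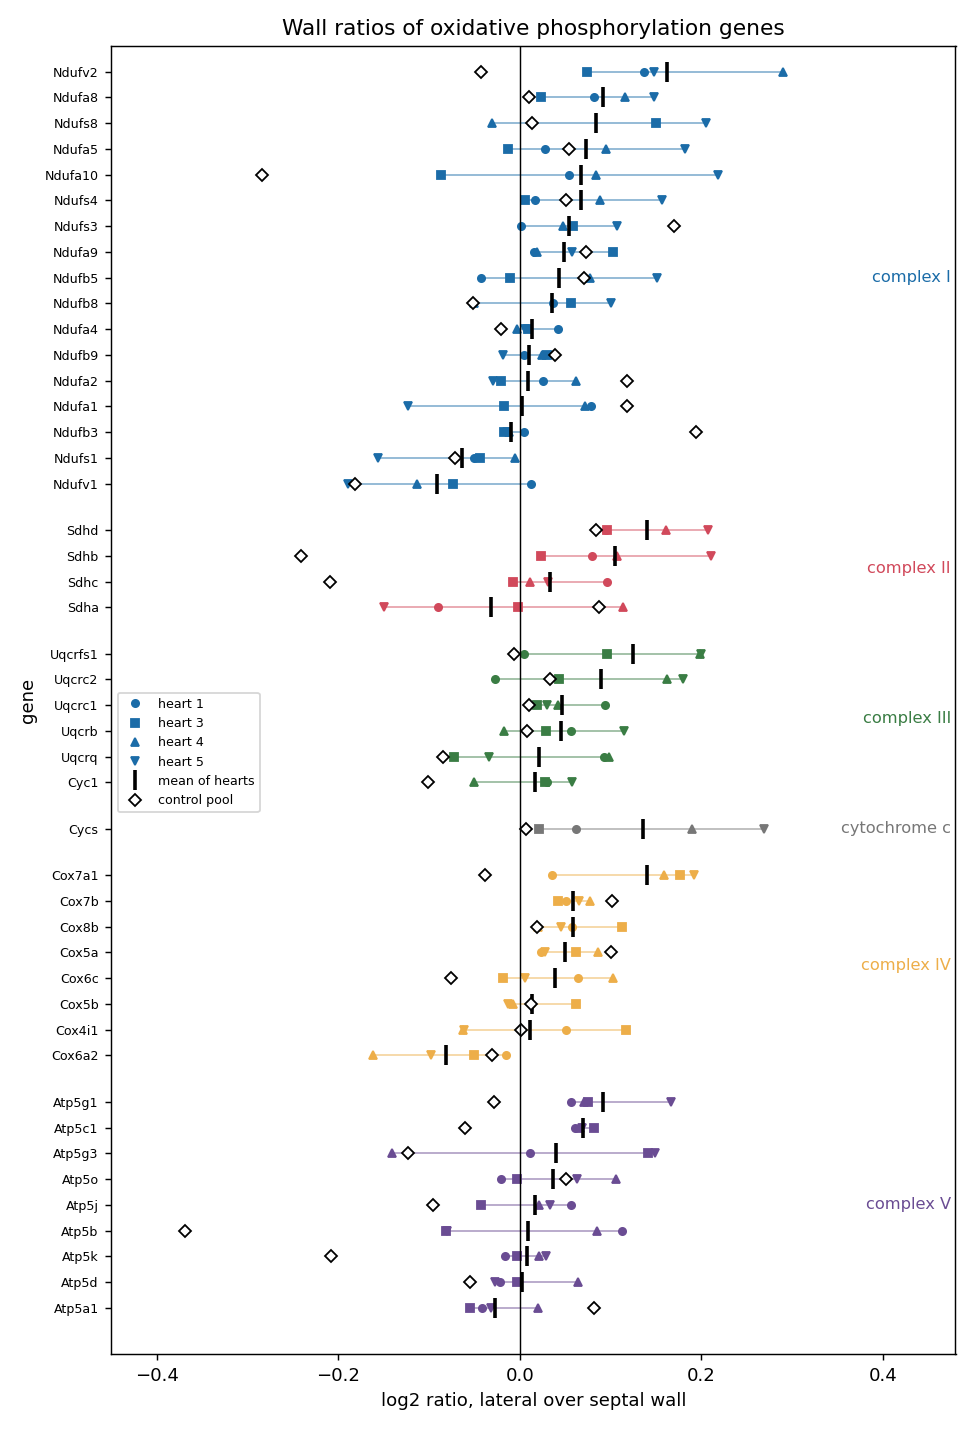
Log2 ratio of lateral over septal wall (horizontal axis) for each of the 45 genes (rows, grouped by complex). Filled symbols are the 4 dyssynchronous hearts, black bars their mean, lines their range and open diamonds the control pool. Every heart lies between -0.19 and 0.29, while the pool reaches -0.37 for Atp5b.

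Complex I, the NADH dehydrogenase, had a median of 0.044 over its 17 genes, with medians of 0.017, 0.0053, 0.048 and 0.10 in hearts 1, 3, 4 and 5 and 0.039 in the pool. Ndufv2, an iron-sulfur subunit of the NADH-oxidising tip, had ratios of 0.14, 0.074, 0.29 and 0.15 in hearts 1, 3, 4 and 5, against -0.043 in the pool. All 4 hearts lay above the pool, as they did for 17.7% of all genes. The mean of 0.16 ± 0.091 (SD, n = 4 hearts) had a 95% limma interval of 0.0030 to 0.32 and an adjusted p of 0.797. Of the 9 genes here of the peripheral arm, which holds that tip, only Ndufv1 and Ndufs1 had means on the septal side. Ndufv1, which binds NADH and the flavin, had 0.012, -0.074, -0.11 and -0.19 in the hearts and -0.18 in the pool, and Ndufs1, the largest iron-sulfur subunit, had -0.051, -0.044, -0.0056 and -0.16 in the hearts and -0.071 in the pool. Ndufs1 was the only complex I gene of the 17 with a septal ratio in every heart, and its pool value lay inside the range of the hearts.

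A further 4 complex I genes were above 0 in every heart. Ndufa8, an accessory subunit of the membrane arm, was at 0.092 ± 0.053 (SD, n = 4) and 0.010 in the pool. Ndufs4, an accessory subunit whose loss causes Leigh syndrome in people, was at 0.067 ± 0.070 in the hearts, against 0.051 in the pool. Ndufs3, a core subunit of the arm that hands electrons to ubiquinone, was at 0.054 ± 0.043 in the hearts, all of them below its pool ratio of 0.17. Ndufa9, an accessory subunit at the junction of the arms, was at 0.049 ± 0.041 in the hearts, against 0.073 in the pool. None of the 4 passed in limma, and for Ndufs4 and Ndufa9 the pool lay inside the range of the hearts. Of the 4, only Ndufa8 had a lateral mean in both dye orientations. Ndufa9 averaged 0.23 with lateral RNA in Cy5 and -0.13 with lateral RNA in Cy3, and its sign followed the dye on every heart array.

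The other 11 complex I genes had hearts on both sides of 0. Ndufb3, of the membrane arm, had 0.0051, -0.017, -0.012 and -0.014 in hearts 1, 3, 4 and 5, against 0.19 in the pool, a difference of -0.20 with a 95% limma interval of -0.48 to 0.077. Ndufa1, a small membrane subunit, had 0.079, -0.018, 0.071 and -0.12 in the hearts and 0.12 in the pool. Heart 5 was the lowest for Ndufa1, and all 4 hearts lay below the pool for both genes, as they did for 18.1% of all genes. Ndufs8, a core iron-sulfur subunit near the ubiquinone site, was at 0.084 ± 0.11 in the hearts, against 0.013 in the pool, with heart 4 below 0. The accessory subunits Ndufa2, Ndufa5, Ndufb5, Ndufb8 and Ndufb9 had means of 0.0091, 0.073, 0.044, 0.036 and 0.010, and pool ratios of 0.12, 0.054, 0.071, -0.052 and 0.039. Every heart lay below the pool for Ndufa2 and Ndufb9 and above it for Ndufb8, and the hearts lay on both sides of the pool for Ndufa5 and Ndufb5. Split by arm, the 9 genes of the peripheral arm had a median of 0.054 and the 7 of the membrane arm 0.036, which leaves out Ndufa4. Ndufa4, named after complex I but now assigned to complex IV, was at 0.013 ± 0.020 in the hearts, against -0.021 in the pool.

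Complex II, succinate dehydrogenase, which also serves the citric acid cycle, had the highest median of the complexes, 0.069 over 4 genes. Its medians were 0.087, 0.011, 0.11 and 0.12 in hearts 1, 3, 4 and 5, against -0.063 in the pool. That rank depended on the dye orientation. Complex II had the lowest median with lateral RNA in Cy5, 0.038, and the highest with lateral RNA in Cy3, 0.12. Sdhd, one of the membrane anchors, had 0.095, 0.096, 0.16 and 0.21 in the hearts and 0.084 in the pool. All 4 hearts were above 0 and above the pool, with a mean of 0.14 ± 0.055, a 95% limma interval of 0.0016 to 0.28 and an adjusted p of 0.797. Sdhb, the iron-sulfur subunit, had 0.079, 0.024, 0.11 and 0.21 in the hearts and -0.24 in the pool. Sdhc, the partner anchor, had 0.096, -0.0078, 0.011 and 0.031 in the hearts and -0.21 in the pool. For both genes all 4 hearts lay above the pool, as they did for 17.7% of all genes. The pool arrays of Sdhc were uneven, at -0.34 with lateral RNA in Cy5 and -0.077 with lateral RNA in Cy3. Sdha, the flavoprotein that oxidises succinate, had -0.090, -0.0017, 0.11 and -0.15 in the hearts. Its pool ratio of 0.087 lay inside their range.

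Complex III, the cytochrome bc1 complex, had a median of 0.046 over 6 genes, and medians of 0.043, 0.028, 0.070 and 0.086 in hearts 1, 3, 4 and 5 against 0.00085 in the pool. Uqcrfs1, the Rieske iron-sulfur protein, had 0.0043, 0.096, 0.20 and 0.20 in the hearts and -0.0060 in the pool. Hearts 4 and 5 were the highest, and the lowest heart, heart 1, lay just above the pool. The core protein Uqcrc1 was above 0 in every heart at 0.046 ± 0.033, and 0.010 in the pool, while the core protein Uqcrc2 was at 0.089 ± 0.099 in the hearts with heart 1 below 0, and 0.034 in the pool. The catalytic cytochrome c1 gene Cyc1 and the small subunit Uqcrq had the lowest means of the complex, 0.016 ± 0.046 and 0.021 ± 0.087, with pool ratios of -0.10 and -0.085. Uqcrb, a small ubiquinone-binding subunit, was at 0.046 ± 0.055 in the hearts, against 0.0077 in the pool. Cycs, the mobile cytochrome c, had 0.062, 0.021, 0.19 and 0.27 in the hearts, all of them above the pool at 0.0063, and a mean of 0.14 ± 0.11 with a 95% limma interval of -0.041 to 0.31.

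Complex IV, cytochrome c oxidase, had a median of 0.044 over 8 genes, with medians of 0.043, 0.062, 0.049 and 0.017 in hearts 1, 3, 4 and 5 and 0.0071 in the pool. The complex includes subunits that exist as a muscle form and a ubiquitous form encoded by separate genes. Cox7a1, a muscle form, had 0.035, 0.18, 0.16 and 0.19 in the hearts and -0.039 in the pool, and was the one member of the 45 with a lateral ratio on all 8 arrays of the hearts. Its mean was 0.14 ± 0.072 with a 95% limma interval of -0.0065 to 0.29 and an adjusted p of 0.797. Its ubiquitous partner Cox7a2 stood at -0.012 ± 0.027 in the hearts, against 0.066 in the pool. The muscle form Cox6a2 leaned to the septal side, with -0.015, -0.050, -0.16 and -0.098 in the hearts and -0.030 in the pool, while its partner Cox6a1 was at 0.11 ± 0.10 in the hearts, against 0.099 in the pool. The muscle form Cox8b was above 0 in every heart at 0.059 ± 0.039, with 0.019 in the pool, and its partner Cox8a was at -0.0068 ± 0.014 in the hearts, against -0.038 in the pool. The 3 muscle forms therefore did not lean to 1 side.

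Among the remaining complex IV genes Cox7b and Cox5a were above 0 in every heart, at 0.059 ± 0.016 and 0.050 ± 0.030, and both had still higher pool ratios of 0.10 and 0.10. Cox7b is a small subunit and Cox5a a subunit on the matrix side. Cox6c was at 0.039 ± 0.055 in the hearts, against -0.076 in the pool, Cox5b at 0.014 ± 0.034 and 0.012, and Cox4i1, the main isoform of a regulatory subunit, at 0.011 ± 0.089 and 0.0018. Each of these last genes had hearts on both sides of 0.

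Complex V, the ATP synthase, had the lowest median of the complexes, 0.017 over 9 genes, with medians of 0.012, -0.0029, 0.064 and 0.033 in hearts 1, 3, 4 and 5 and -0.060 in the pool. Atp5c1, the gamma subunit that forms the rotating shaft, had 0.061, 0.082, 0.066 and 0.069 in the hearts, the lowest SD of the 45 genes at 0.0089, and -0.060 in the pool. Atp5g1, which encodes the c subunit of the proton-driven ring, had 0.056, 0.075, 0.070 and 0.17 in the hearts and -0.029 in the pool. Of the other F1 genes, which unlike Atp5c1 had hearts on both sides of 0, the alpha subunit Atp5a1 was at -0.027 ± 0.033, the beta subunit Atp5b at 0.0091 ± 0.10 and the delta subunit Atp5d at 0.0029 ± 0.042. Their pool ratios were 0.082, -0.37 and -0.054. The peripheral stalk genes Atp5o and Atp5j were at 0.036 ± 0.059 and 0.017 ± 0.043 in the hearts and at 0.051 and -0.096 in the pool. Atp5g3, a further c subunit gene, was the most variable member, with 0.012, 0.14, -0.14 and 0.15 in the hearts and -0.12 in the pool, and Atp5k, the small e subunit, was at 0.0077 ± 0.021 in the hearts, against -0.21 in the pool.

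Set side by side, the complexes were close to each other. Of 10 pairs of complexes, 3 had a difference of 1 sign in all 4 hearts. Complex II minus complex V was 0.076, 0.014, 0.047 and 0.087 in hearts 1, 3, 4 and 5 and -0.0029 in the pool. Complex III minus complex V was 0.031, 0.031, 0.0061 and 0.053 in the hearts and 0.061 in the pool. Complex I minus complex II was -0.070, -0.0056, -0.063 and -0.019 in the hearts and 0.10 in the pool. The highest complex was complex II in hearts 1, 4 and 5, complex IV in heart 3 and complex I in the pool, so the order was not shared by all. Nor did the dye orientations share it, as complex II was lowest with lateral RNA in Cy5 and highest with lateral RNA in Cy3. Complex V was the lowest in neither orientation. These are differences of medians over 4 to 17 genes, and no test was made of them because the genes of a complex are not replicates.

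**Figure D2:**
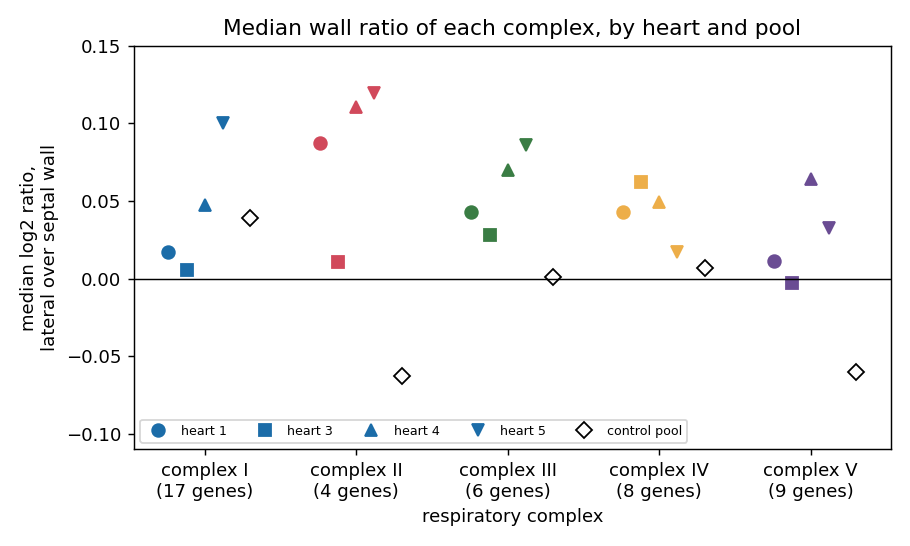
Median log2 ratio of lateral over septal wall (vertical axis) over the genes of each complex (horizontal axis), with filled symbols for the 4 dyssynchronous hearts and open diamonds for the control pool. The heart medians lie between -0.0029 and 0.12, and the pool lies below every heart for complexes II, III, IV and V.

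Setting the hearts against the pool addressed the difference between dyssynchronous and synchronous animals in the ratio of the walls. In limma 0 of 45 members and 0% of all genes passed for this difference, with an adjusted p of 1 for every member, where the single pool is taken to have the same spread as a heart. At an unadjusted p under 0.05 there were 2 members, Atp5b and Sdhb, near the share of 4.74% (783) over all genes. The fit to single arrays treated the 2 arrays of each heart and of the pool as almost separate samples, so its unadjusted counts are not set beside this share. All 4 hearts lay above the pool for 22 members and below it for 8, where 17.7% and 18.1% of all genes did.

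The 3 highest differences belonged to genes with a septal ratio in the pool and a mean nearer to 0 in the hearts. Atp5b, the catalytic beta subunit of the ATP synthase, had 0.11, -0.081, 0.085 and -0.080 in hearts 1, 3, 4 and 5, against -0.35 and -0.39 on the pool arrays with lateral RNA in Cy5 and in Cy3. Both pool arrays were more septal than any heart, and the difference of 0.38 had a 95% limma interval of 0.0010 to 0.75. Ndufa10, a nucleoside kinase-like subunit of the complex I membrane arm, had 0.054, -0.087, 0.084 and 0.22 in the hearts and -0.28 and -0.29 on the pool arrays, a difference of 0.35 with an interval of -0.062 to 0.76. For Sdhb the pool arrays read -0.23 and -0.25, and the difference was 0.35 with an interval of 0.0078 to 0.68. These 3 genes had septal ratios of similar size in both dye orientations of the pool. The pool ratios of Sdhc and Atp5k did not hold so evenly, with -0.34 and -0.077 for Sdhc and 0.0015 and -0.42 for Atp5k in the same order. On the other side, Ndufb3, Sdha and Ndufs3 had the lowest differences, -0.20, -0.12 and -0.12. By complex the median difference of hearts minus pool was 0.016, 0.15, 0.081, 0.0051 and 0.12 for complexes I to V. Complexes II and V were thus the 2 with the highest median difference. In the pool 2 of the 9 complex V genes were lateral and 7 were septal, where 49.0% of all genes were lateral. The 6 further complex V genes measured differed, with 5 lateral in the pool and a median difference of 0.0025. Of 13 citric acid cycle genes 3 were lateral in the pool, with a median difference of 0.11. Of 12 ventricular cardiomyocyte markers 1 was lateral in the pool, with a median difference of 0.087.

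The dye orientation moved the ratios more than the wall did. Over the 45 genes the SD of the mean wall ratio was 0.055, and that of the mean dye ratio, Cy5 over Cy3, was 0.10. Cyc1, the gene of cytochrome c1, is an example. On the 4 heart arrays with lateral RNA in Cy5 it read -0.18, -0.24, -0.33 and -0.21 in hearts 1, 3, 4 and 5, and with lateral RNA in Cy3 it read 0.24, 0.29, 0.23 and 0.32. The sign followed the dye on all 8 arrays, and the average of both orientations was near 0. Atp5g3 showed the opposite dye preference, with 0.44, 0.38, 0.024 and 0.49 with lateral RNA in Cy5 and -0.41, -0.093, -0.30 and -0.19 with lateral RNA in Cy3. In all, 25 of the 45 genes changed sign between the orientations when averaged over the hearts, 17 were lateral in both and 3 were septal in both.

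The lateral lean of single complexes depended on the orientation to different degrees. With lateral RNA in Cy5 the medians of complexes I to V were 0.11, 0.038, 0.11, 0.047 and 0.041. With lateral RNA in Cy3 they were -0.0024, 0.12, -0.012, 0.026 and -0.0037. Complexes I, III and V were therefore above 0 in one orientation only, and complexes II and IV in both. Over all genes the corresponding medians were 0.029 and -0.023. Of the 16 genes with a lateral ratio in all 4 hearts, 11 were lateral in both orientations, namely Ndufa8, Ndufv2, Sdhb, Sdhd, Uqcrc1, Cycs, Cox7a1, Cox7b, Cox8b, Atp5c1 and Atp5g1, which are named here after their values were seen. The others of the 16, namely Ndufa9, Ndufs3, Ndufs4, Uqcrfs1 and Cox5a, changed sign between the orientations. Ndufs1, Cox6a2 and Atp5a1 were the genes septal in both.

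**Figure D3:**
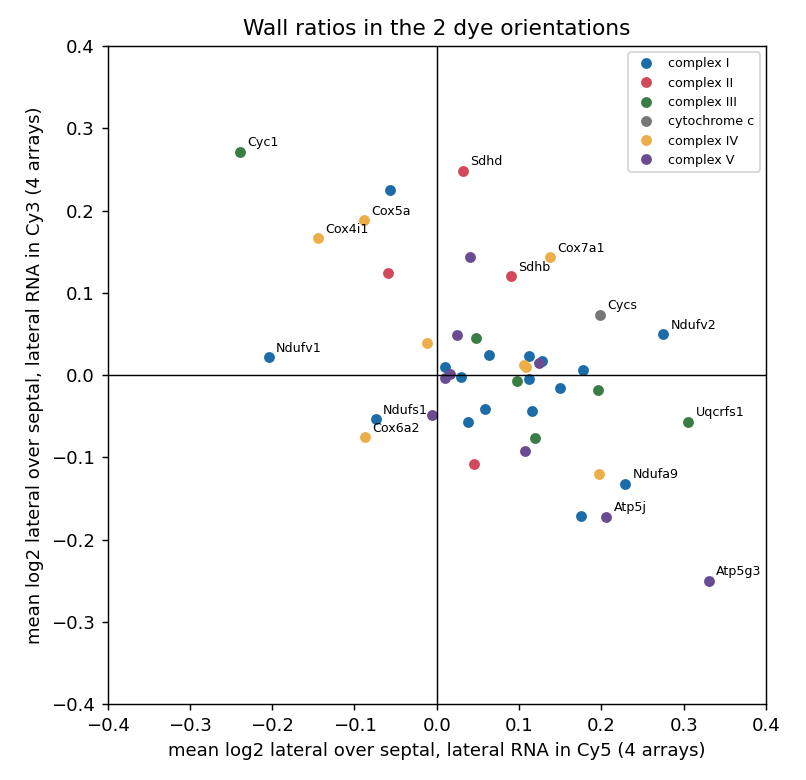
Mean log2 ratio of lateral over septal wall in the 4 dyssynchronous hearts, with lateral RNA in Cy5 (horizontal axis) against lateral RNA in Cy3 (vertical axis), 1 point a gene, coloured by complex. Points in the upper left and lower right, such as Cyc1 and Atp5g3, changed sign with the dye, and 17 genes lie in the upper right.

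Other genes of the same pathway had ratios of similar size. Of 20 further complex I subunits 17 were measured, with a median of 0.045, 9 lateral and 1 septal in all 4 hearts, from Ndufv3 at -0.13 ± 0.088 to Ndufa6 at 0.089 ± 0.030. The 3 further complex III subunits had a median of -0.00064, from Uqcr10 at -0.072 ± 0.044 to Uqcrh at 0.022 ± 0.042. The 8 further complex IV genes had a median of 0.028 and ran from Cox4i2, a hypoxia-responsive isoform, at -0.13 ± 0.31 to Cox6a1. The 6 further complex V genes had a median of 0.056 and ran from Atp5e at -0.00050 ± 0.024 to Atpif1, the ATP synthase inhibitor, at 0.13 ± 0.17. Over all genes the median was 0.0026. None of these genes passed in limma in either direction. The 13 subunits encoded by mitochondrial DNA were not analysed here.

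Genes that build or surround the respiratory chain had list medians from -0.015 to 0.066, against 0.040 for the 45 genes. Some single genes spread further than any of the 45. The 30 assembly factors measured had a median of 0.066 and spread more widely, from Ndufaf3, of complex I assembly, with 0.43, -0.066, -0.42 and -0.68 in hearts 1, 3, 4 and 5, to Ttc19, of complex III assembly, with 0.13, -0.015, 0.40 and 0.54. Their pool ratios were 0.028 and 0.12. Beyond 1.5-fold in at least 1 heart were 3 of the 30 assembly factors, namely Ndufaf3, Cox18 and Lyrm7. Cox18 had 0.42, 0.95, -0.87 and 0.32 in the hearts, against 0.31 in the pool. Lyrm7 had 0.00, 0.44, 0.47 and -0.79 in the hearts, against 0.00 in the pool. Both were chosen after their values were seen, and exact zeros stood on 4 of 10 arrays for Cox18 and 5 of 10 for Lyrm7. The 13 citric acid cycle genes measured had a median of 0.053 in the hearts and -0.066 in the pool, from Ogdh at -0.049 ± 0.10 to Sucla2, of succinyl-CoA synthetase, at 0.13 ± 0.079. The 11 carrier and outer membrane genes had a median of 0.055, from Vdac1 at -0.042 ± 0.062 to Vdac2 at 0.11 ± 0.079. The 14 regulators of mitochondrial biogenesis had a median of -0.015, from Nrf1, with exact zeros on 6 of 10 arrays and ratios of 0.22, -0.39, -0.74 and 0.00, to the mitochondrial transcription factor Tfb2m at 0.21 ± 0.13. Among these regulators Nrf1 and Gabpb1, a partner of GABPA named after its values were seen, were beyond 1.5-fold in a heart, and Gabpb1 had -0.14, 0.032, 0.72 and 0.025 in the hearts, against 0.14 in the pool. The ribosomal protein genes had medians of -0.014, -0.016, -0.018 and -0.049 in the hearts, against 0.0010 in the pool, with 4 lateral and 15 septal in every heart.

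Markers of cell types were read beside these ratios, as ratios only, so their levels in the labelled left ventricle could not be checked. The 12 ventricular cardiomyocyte markers had medians of 0.0051, -0.085, 0.0087 and -0.020 in hearts 1, 3, 4 and 5 and -0.14 in the pool, with 1 lateral and 2 septal in every heart. The pool was the lowest of the 5 for these markers, as it was for complexes II to V. The 7 atrial markers had medians of -1.35, -0.57, -0.38 and -2.27 in the hearts, against 0.00 in the pool, with 3 septal in every heart, led by the atrial light chain Myl7 at -4.54 ± 1.32. Smooth muscle markers (6 genes) had medians of 0.37, 0.18, 0.079 and 0.43 in the hearts and 0.21 in the pool. Macrophage markers (6 of 8 measured) had 0.0073, 0.34, 0.25 and 0.21 in the hearts, against 0.086 in the pool, and fibroblast markers (9 genes) had -0.10, 0.071, -0.18 and -0.18 in the hearts, against -0.027 in the pool. Skeletal muscle markers (8 genes) had 0.27, 0.020, 0.029 and -1.16 in the hearts, against 0.082 in the pool, with heart 5 far below the rest. Endothelial markers (8 genes) had 0.032, -0.027, -0.036 and -0.023 in the hearts, against 0.030 in the pool, and fat markers (6 of 7) had 0.010, -0.26, 0.088 and -0.11 in the hearts, against -0.020 in the pool, with Ucp1 at an exact 0 on 5 of 10 arrays. Red cell markers (3 of 4) had -0.16, -0.21, -0.10 and 0.39 in the hearts, against 0.22 in the pool. The part of these cell types in the oxidative phosphorylation ratios was not tested.

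**Figure D4:**
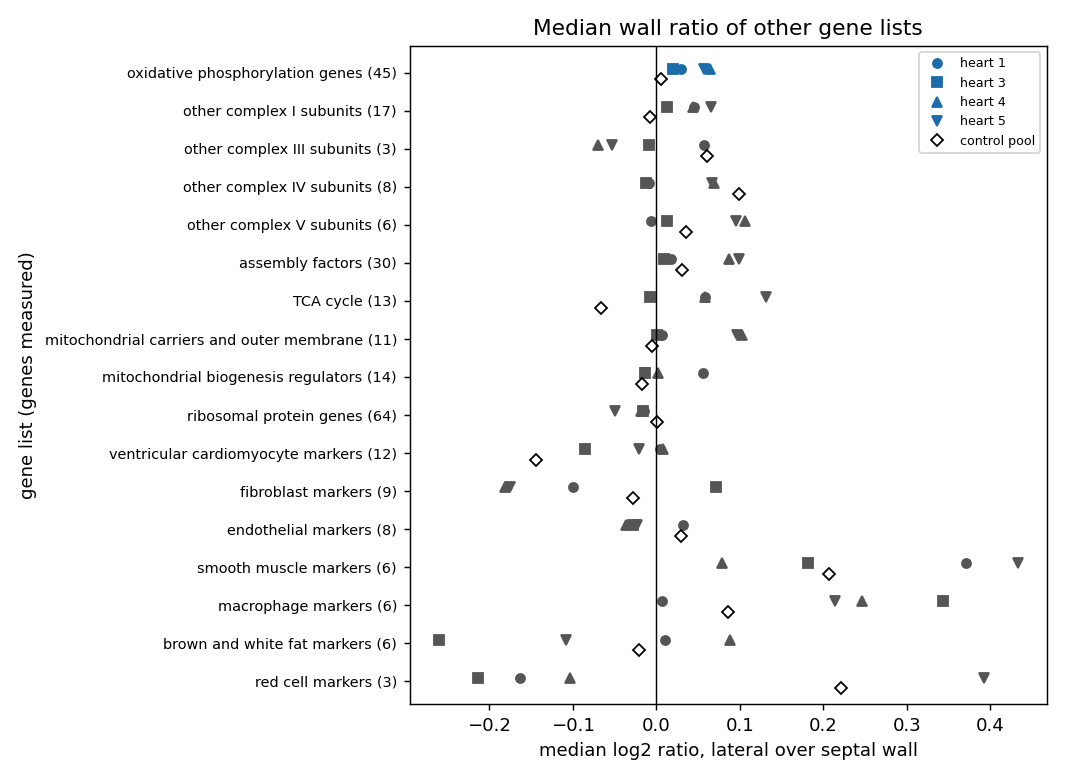
Median log2 ratio of lateral over septal wall (horizontal axis) for the 45 oxidative phosphorylation genes (top row) and other gene lists, with filled symbols for the 4 dyssynchronous hearts and open diamonds for the control pool. The 45 genes lie between 0.021 and 0.064 in the hearts and at 0.0063 in the pool. Atrial and skeletal muscle markers are not drawn because they run beyond the axis.

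Many respiratory chain genes are known targets of the transcription factors NRF1, GABPA and the estrogen-related receptors, and their promoter windows were searched for the corresponding letters on both strands. Windows from RefSeq (GRCm38.p6), running from 250 bases before to 50 after the annotated start, were found for 33 of the 45 genes. The NRF1 letters, GCGCA followed by any base and then GCGC, were in the window of 9 of these 33 genes (27.3%) and of 8.6% of the 13200 array genes with a window. The GABPA letters CCGGAAG were in 6 (18.2%) against 14.8%, and the estrogen-related receptor letters TCAAGGTCA in 2 (6.06%) against 0.303%. Of the 16 genes lateral and 2 septal in all 4 hearts, those with the NRF1 motif ahead of the start were Sdhd, Ndufa8 and Atp5c1, which are among the 16. Their stretches are shown so that the matched letters can be read, in capitals, at chr9:50603879-50603968 for Sdhd, chr2:36049339-36049408 for Ndufa8 and chr2:10080433-10080489 for Atp5c1, all on the minus strand and written 5′ to 3′. The capitals of Ndufa8 match on the opposite strand, as the reverse complement of those letters.
Sdhd: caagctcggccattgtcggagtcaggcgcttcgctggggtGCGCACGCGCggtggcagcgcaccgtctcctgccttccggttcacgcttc
Ndufa8: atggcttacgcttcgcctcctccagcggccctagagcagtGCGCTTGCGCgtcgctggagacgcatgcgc
Atp5c1: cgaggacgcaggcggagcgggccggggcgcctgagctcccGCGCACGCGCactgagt
The NRF1 motif was also ahead of the start of Sdha, Ndufa5 and Atp5k, which had hearts on both sides of 0, and after the start of Atp5g3, Atp5o and Uqcrc1. The match is of letters only and does not show binding.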

How the data were processed

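Lateral and septal RNA of 4 dyssynchronous hearts and 1 control pool was hybridised to 10 two-colour arrays, 2 a heart or pool with the dyes exchanged. Agilent Feature Extraction 7.5 is the software named in the labels, per the submitters' processing notes. The authors deposited 1 signed ratio per feature and array, taken here as a log10 ratio of Cy5 over Cy3. The labels give neither log base nor direction, and for background correction, dye normalization and filters the method is not given in the sources used here. The median is 0 on every array, and how it was centred is unknown, as is the scale. The direction is called likely because the software named usually writes that ratio, and the labels give the dye of each wall. Genes with a large wall ratio changed sign with the dyes, so the values were not already turned. That change would occur with either direction of the ratio and cannot tell Cy5 over Cy3 from its inverse.

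Values were multiplied by 3.32 to log2 and signed by the Cy5 wall. Of 22393 features, 18218 had 1 symbol, 16 had several and 4159 had none, which left 16504 genes after averaging probes. All 45 Entrez numbers of the members were found in the RefSeq gene table, with the symbols used here. No member had an exact 0 on any array, although 7.69% to 15.1% of features did. The 2 arrays of each heart and of the pool were averaged first. A single limma fit (limma 3.58.1, statmod 1.5.0, R 4.3.3) took in all 5, two-sided, with Benjamini-Hochberg adjustment over all genes. Precision is limited by how many arrays there are. The procedure was tested on simulated data.

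The members and all lists were chosen with earlier results of these data known. Named genes are the members of 1 sign in all hearts, the 2 highest and 2 lowest of each complex, the 3 highest and 3 lowest in difference from the pool, the muscle isoforms with their partners, members at an unadjusted p under 0.05, and the extremes of each other list. Members outside the rule are named to account for all 45. The alternatives were centring, scaling, the median over probes, exact zeros as missing, values taken as already turned, single dye orientations, single arrays with a dye term and heart as random block, robust moderation, the hearts alone, Ndufa4 in complex IV, and each heart left out.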

Additional observations from a re-analysis of the deposited data

Results flagged for a closer look

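In 50 sets of 4 hearts, the 45 genes and the 5 complex medians, 1 had a heart far from the others, where about 1 in 20 sets, or 2.5, has one by chance. It was Atp5g1, a gene for the c subunit of the ATP synthase ring, with 0.056, 0.075, 0.070 and 0.17 in hearts 1, 3, 4 and 5 and -0.029 in the pool. Heart 5 is the highest, and its gap to the nearest heart is 0.835 of the whole range, just over the critical value of 0.829. Without heart 5 the mean is 0.067.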

How the results depend on the processing

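Subtracting array medians, taking medians over probes or taking exact zeros as missing moved no member mean by more than the SD between hearts, and in limma each called 0 genes for both comparisons, as did scaling, values taken as already turned, robust moderation and each heart left out. The hearts fitted alone called 0 genes for the wall ratio. Scaling moved the complex V pool median to -0.094. A fit to the single arrays, with dye in the model and heart as a random block, called 20 genes for lateral over septal wall and 3 for hearts minus pool, 0 of them members (lowest adjusted p 0.497 and 1), and treated the 2 arrays of each heart as almost separate samples.

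With lateral RNA in Cy5 alone, the heart medians of complexes I and III were 0.11 and 0.11, and the pool medians of complexes I, II, III and V were 0.095, -0.14, 0.045 and 0.0015, with 6 members septal in all hearts. With lateral RNA in Cy3 alone, the heart medians of complexes I, II and III were -0.0024, 0.12 and -0.012, the pool medians of I, III and V were -0.042, -0.028 and -0.15, and 9 members were lateral and 9 septal in all hearts.

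Taking the values as already turned to lateral over septal exchanges the dye and wall parts, and goes against Myl7, whose deposited sign changed with the dyes in all 4 hearts. In that setting the heart medians of complexes II, III and IV would be -0.053, 0.075 and -0.0044, the pool medians of III and V 0.036 and 0.032, and 7 members would be septal in all hearts. With each heart left out, the count of members septal in all remaining hearts was 2 to 5, with 5 without heart 4 and 4 without heart 1. Counting Ndufa4 with complex IV moved no complex median by more than the SD between hearts. The mean changed sign for 8 members with Cy5 alone, 17 with Cy3 alone and 14 with values taken as already turned, and for 1 to 5 with a heart left out. The cause of these shifts was not tested.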
